A study of Mus musculus with 7 samples.

Results

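The genes described here are 42 genes of fatty acid oxidation, ketone body formation and PPARα signalling. They were found by symbol in the deposited table, which held all 42 among its 12151 genes, and all 42 were among the 12105 genes tested. Their messenger RNA was measured in hepatocytes, the main cells of the liver, isolated from mice, in 4 ALAS1/2-KO libraries and 3 wild-type (WT) libraries. Heme synthesis begins with an aminolevulinic acid synthase, of which ALAS1 and ALAS2 are the forms. ALAS1/2-KO mice carry a conditional Alas1 allele from which an inducible Cre recombinase is to remove exons 4 and 5. Alas2 was lowered there by injected siRNA joined to GalNAc, a sugar that hepatocytes take up, and these libraries carry a tamoxifen label. WT libraries carry a wild-type genotype label and the treatment label "non", so the effects of genotype, siRNA and tamoxifen cannot be told apart. The sources used here do not give the cells in which Cre is made, the strain, the age or the number of mice. The labels do not say whether replicates are separate mice, so p-values are set against a spread between libraries that may be technical only.

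PPARα is a nuclear receptor of hepatocytes that binds fatty acids, pairs with the retinoid X receptor on DNA, and in fasting raises genes that take up, activate and oxidise fatty acids. In mitochondria, acyl groups enter through the carnitine shuttle and are shortened by dehydrogenase, hydratase, second dehydrogenase and thiolase steps, whose product feeds the liver's ketone bodies. Peroxisomes shorten very long, branched and dicarboxylic acyl chains with their own oxidases, multifunctional enzymes and thiolases, and pass the shortened chains on to mitochondria.

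Listed reads ran from 27933939 to 30195635 per ALAS1/2-KO library and from 22916097 to 34048680 per WT library, and 1 read was worth 0.0293 to 0.0522 CPM (reads scaled to library size). Alas2 stood at 0.20 to 0.80 CPM in ALAS1/2-KO libraries and 6.65 to 16.9 CPM in WT libraries (limma adjusted p = 0.0027). Alas2 is also a gene of red cell precursors, and the 4 of 6 erythroid markers in the table summed to 2.75 to 7.39 CPM in ALAS1/2-KO libraries and 11.3 to 41.3 CPM in WT libraries. None of these 4 was at 0 in all libraries, all 4 had negative log2 fold changes (median -2.28) and 1 passed as lower. Their part in the Alas2 difference was not tested. Alas1, whose whole-gene value does not check the loss of those exons, stood at 287 to 361 CPM in ALAS1/2-KO libraries and 83.5 to 279.5 CPM in WT libraries (limma adjusted p = 0.277). All 8 hepatocyte markers were present, with a summed level of 69274 to 75326 CPM in ALAS1/2-KO libraries and 110529 to 117623 CPM in WT libraries. The sum and the single genes did not go the same way, since 6 of the 8 had positive log2 fold changes (median 0.27); 2 had every ALAS1/2-KO library above WT and 2 every one below, and 1 passed as lower. Mitochondrially encoded genes took 23.8% ± 4.72 of listed reads in ALAS1/2-KO libraries and 37.9% ± 5.68 in WT libraries (SD, n = 4 and 3), and the deposited values had been scaled to library sizes of 1.07 to 1.18 times the listed reads in ALAS1/2-KO and 0.801 to 1.003 times in WT.

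PPARα binds repeats of a short half-site. For the 6 genes that passed the test, the bases before a start given by RefSeq (build GRCm38.p6) are therefore shown. Each stretch reads 5′ to 3′ towards that start. The motif searched on both strands was AGGTCANAGGTCA, with up to 2 mismatches, and a match is in capitals. The stretches are Ppara at chr15:85735526-85735775 (plus strand), Creb3l3 at chr10:81092592-81092841, Ehhadh at chr16:21787835-21788084, Acaa1b at chr9:119157094-119157343, Decr2 at chr17:26090165-26090414 and Eci2 at chr13:34994145-34994394 (all minus strand). Of the starts that RefSeq gives for Creb3l3, the one with a match is shown. It lies inside the gene as annotated, and the stretch before the start at the gene's annotated end (chr10:81098873-81099122) held no match, with at best 4 mismatches. The stretches of Ppara and Eci2 also lie wholly inside their genes as annotated, and that of Decr2 lies partly inside.
Ppara: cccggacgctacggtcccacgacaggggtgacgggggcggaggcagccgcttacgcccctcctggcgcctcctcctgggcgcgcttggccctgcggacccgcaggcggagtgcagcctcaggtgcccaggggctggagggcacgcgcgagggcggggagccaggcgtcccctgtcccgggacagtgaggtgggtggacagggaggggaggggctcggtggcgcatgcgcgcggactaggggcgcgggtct
Creb3l3: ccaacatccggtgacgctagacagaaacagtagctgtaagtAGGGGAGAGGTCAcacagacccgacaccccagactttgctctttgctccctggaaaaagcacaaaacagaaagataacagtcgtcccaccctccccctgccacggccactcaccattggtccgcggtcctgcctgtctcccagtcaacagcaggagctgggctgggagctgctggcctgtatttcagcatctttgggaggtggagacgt
Ehhadh: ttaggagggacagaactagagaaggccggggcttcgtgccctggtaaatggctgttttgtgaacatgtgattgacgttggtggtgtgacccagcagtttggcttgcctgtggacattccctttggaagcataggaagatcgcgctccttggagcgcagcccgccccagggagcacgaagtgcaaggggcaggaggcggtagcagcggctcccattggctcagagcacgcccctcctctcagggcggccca
Acaa1b: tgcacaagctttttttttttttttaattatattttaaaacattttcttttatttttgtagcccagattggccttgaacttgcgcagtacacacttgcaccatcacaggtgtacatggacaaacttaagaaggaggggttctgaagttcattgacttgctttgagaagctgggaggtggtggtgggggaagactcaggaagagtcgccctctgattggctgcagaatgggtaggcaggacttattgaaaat
Decr2: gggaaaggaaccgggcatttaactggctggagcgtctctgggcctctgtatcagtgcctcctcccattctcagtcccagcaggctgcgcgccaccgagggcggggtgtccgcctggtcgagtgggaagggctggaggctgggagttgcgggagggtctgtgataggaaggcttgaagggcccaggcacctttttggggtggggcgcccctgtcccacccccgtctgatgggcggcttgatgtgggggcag
Eci2: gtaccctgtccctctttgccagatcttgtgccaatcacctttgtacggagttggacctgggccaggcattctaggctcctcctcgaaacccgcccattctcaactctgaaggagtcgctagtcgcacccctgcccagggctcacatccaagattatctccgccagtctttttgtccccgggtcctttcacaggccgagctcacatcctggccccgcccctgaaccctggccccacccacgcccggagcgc
Creb3l3 alone of these 6 held a match, 209 bases before that inner start, and the best stretch in the other 5 had 4 or 5 mismatches.

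Among all members, 36 had a promoter window of 300 bases (250 before and 50 after a start), and 8 of these 36 (22.2%) held a match, against 3.86% of the 32851 promoters in the table and 3.84% of 9410 tested genes. The list was chosen partly for PPARα signalling, so a higher share among members is no independent result. Some members were searched at more than 1 start, so shares per gene and per promoter are unlike measures. The matching members were Acot4, Acox2, Cd36, Creb3l3, Echs1, Etfa, Fabp1 and Slc25a20. Stretches of 41 bases around the matches that begin before the start, other than that of Creb3l3, are shown as examples of the motif in members described below: Fabp1 at chr6:71199798-71199838 and Acot4 at chr12:84038352-84038392 (plus strand), and Cd36 at chr5:17835933-17835973, Echs1 at chr7:140116478-140116518 and Etfa at chr9:55512294-55512334 (minus strand).
Fabp1: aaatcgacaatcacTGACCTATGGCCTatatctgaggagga
Acot4: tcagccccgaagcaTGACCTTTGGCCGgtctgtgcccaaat
Cd36: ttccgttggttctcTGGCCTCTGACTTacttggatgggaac
Echs1: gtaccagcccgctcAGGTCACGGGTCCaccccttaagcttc
Etfa: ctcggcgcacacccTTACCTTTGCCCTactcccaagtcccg
Fabp1 had 1 mismatch to the motif and the others 2. The Cd36 stretch lies inside the gene as annotated. Of the 8 genes with a match, 1 passed the test between the groups (Creb3l3), and these letters say nothing of whether the receptor binds there.

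Set against WT, a few members stood higher in ALAS1/2-KO hepatocytes and the peroxisomal bifunctional enzyme gene Ehhadh stood lower. In limma over the whole table, 6 of the 42 members passed an adjusted p of 0.05, against 5.1% of all genes tested. Members were chosen with earlier results of these data known, so this and the following shares are not an unbiased comparison with all genes. The 5 that rose were Ppara, Creb3l3, Acaa1b, Decr2 and Eci2 (2.91% of all genes rose), and the 1 that fell was Ehhadh (2.19% of all genes fell). Groups did not overlap for 16 of 42 members, 13 with every ALAS1/2-KO library above every WT library and 3 with every one below, against 22.7% of all genes tested in both directions (11.3% above and 11.4% below). At an unadjusted limma p under 0.05 there were 20 members, against 23.7% of all genes. The median log2 fold change, ALAS1/2-KO over WT, was 0.19 over members, of which 31 were positive, and -0.02 over all genes tested. With CPM rescaled to listed reads, the median over all genes moved to 0.32. There 26 members passed, beside 2735 of the 12105 genes tested (617 as deposited), so values below are relative to the deposited scaling. Of all calls, 57.1% were in the higher direction as deposited, 92.6% with that rescaling and 42.3% with scaling that left out the most abundant and the mitochondrial genes. The number of members that passed was 1 without WT replicate 2 (Ehhadh), where 100 of all genes tested passed. It was 3 without ALAS1/2-KO replicate 4 (210 of all genes), WT replicate 1 (231) or WT replicate 3 (331). Without ALAS1/2-KO replicate 2 it was 9 (379 of all genes), and without limma's intensity trend it was 2, Eci2 and Ehhadh (355 of all genes).

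**Figure D1:**
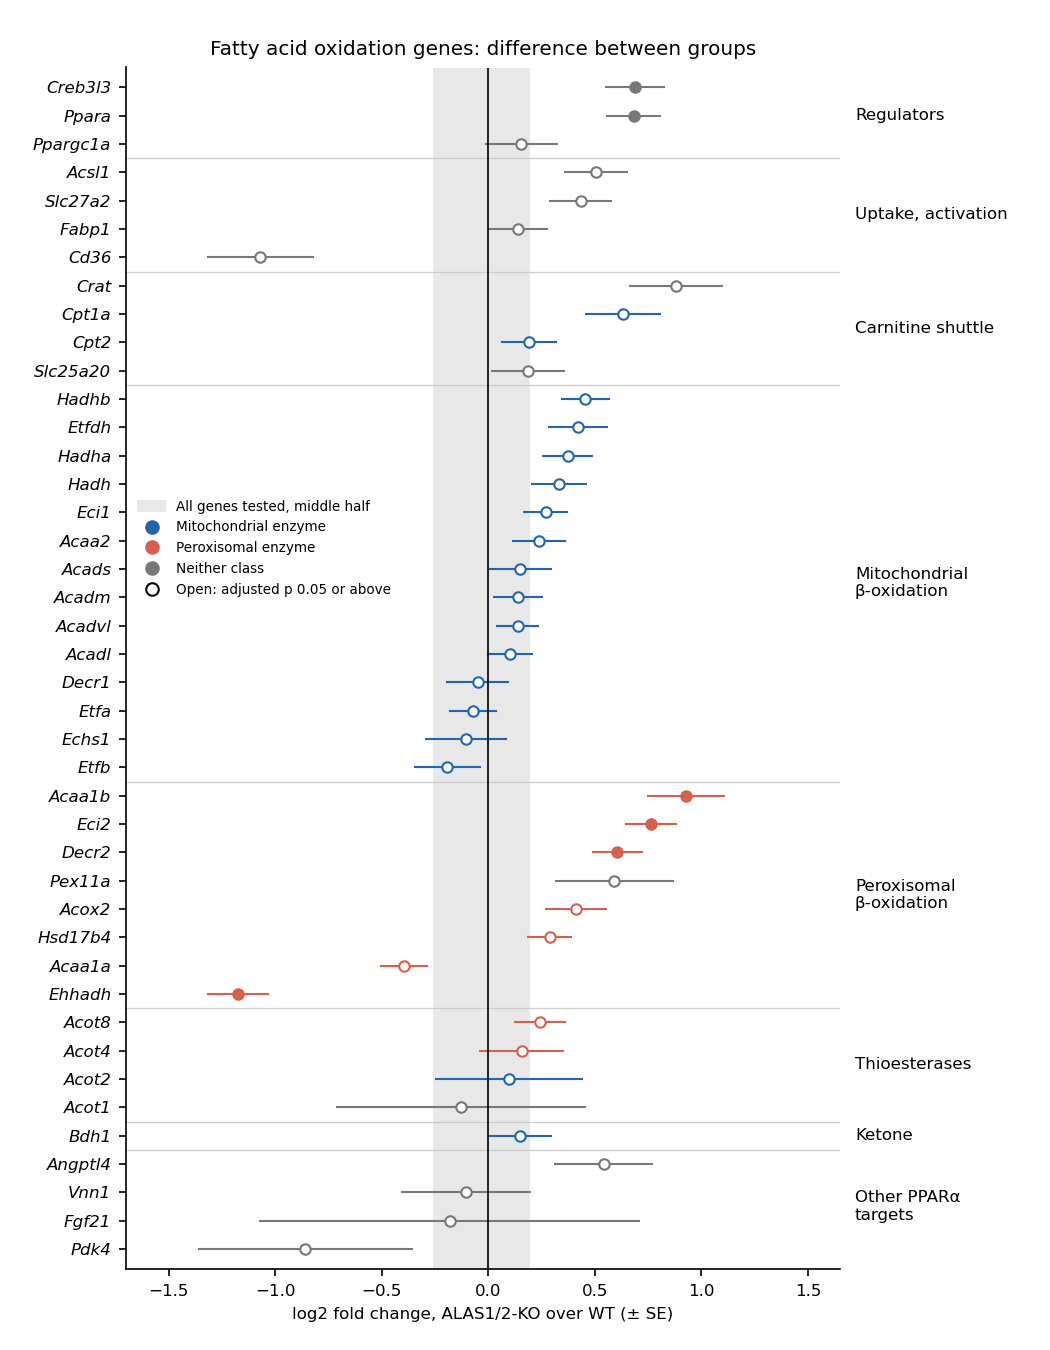
Log2 fold change of each of the 42 members, ALAS1/2-KO over WT, with its standard error (horizontal axis), grouped by role (rows); filled points passed a limma adjusted p of 0.05, and the grey band holds the middle 50% of all genes tested. Mitochondrial enzymes lie between -0.19 and 0.63 with no filled point, and peroxisomal enzymes spread from -1.17 (Ehhadh) to 0.93 (Acaa1b).

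Ppara and Creb3l3, transcription factors of the fasting liver, rose in ALAS1/2-KO hepatocytes, and the coactivator gene Ppargc1a did not pass the test. Ppara, which encodes the receptor itself (chromosome 15, 85734983 to 85802819, mm10), had 37.3, 30.8, 32.8 and 38.6 CPM in ALAS1/2-KO replicates 1 to 4, against 23.5, 18.3 and 23.4 CPM in WT replicates 1 to 3. Every ALAS1/2-KO library lay above every WT library, and Ppara rose 1.60-fold (log2 fold change 0.68, SE 0.13, limma adjusted p = 0.0269; exact two-sided permutation p = 0.0286, the smallest that 35 regroupings allow). Creb3l3, a membrane-bound transcription factor of the liver that acts with PPARα on fasting genes (chromosome 10, 81084324 to 81098874), had 285, 219.6, 276 and 277 CPM in ALAS1/2-KO libraries, against 188, 141 and 164 CPM in WT libraries. Its groups did not overlap either, although ALAS1/2-KO replicate 2 stood apart below the other 3, and it rose 1.61-fold (log2 fold change 0.69, SE 0.14, limma adjusted p = 0.0325). Ppargc1a, a coactivator of PPARα and of mitochondrial genes, had 4.84, 4.92, 3.82 and 4.22 CPM in ALAS1/2-KO libraries, against 4.49, 4.01 and 3.48 CPM in WT libraries. Its groups overlapped, and the log2 fold change was 0.15 (SE 0.17, limma adjusted p = 0.625). The Ppara call did not hold without ALAS1/2-KO replicate 4 (limma adjusted p = 0.0658), WT replicate 1 (0.0591) or WT replicate 2 (0.12). The Creb3l3 call did not hold without ALAS1/2-KO replicate 3 (0.0679), ALAS1/2-KO replicate 4 (0.0779), WT replicate 2 (0.152) or WT replicate 3 (0.074).

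**Figure D2:**
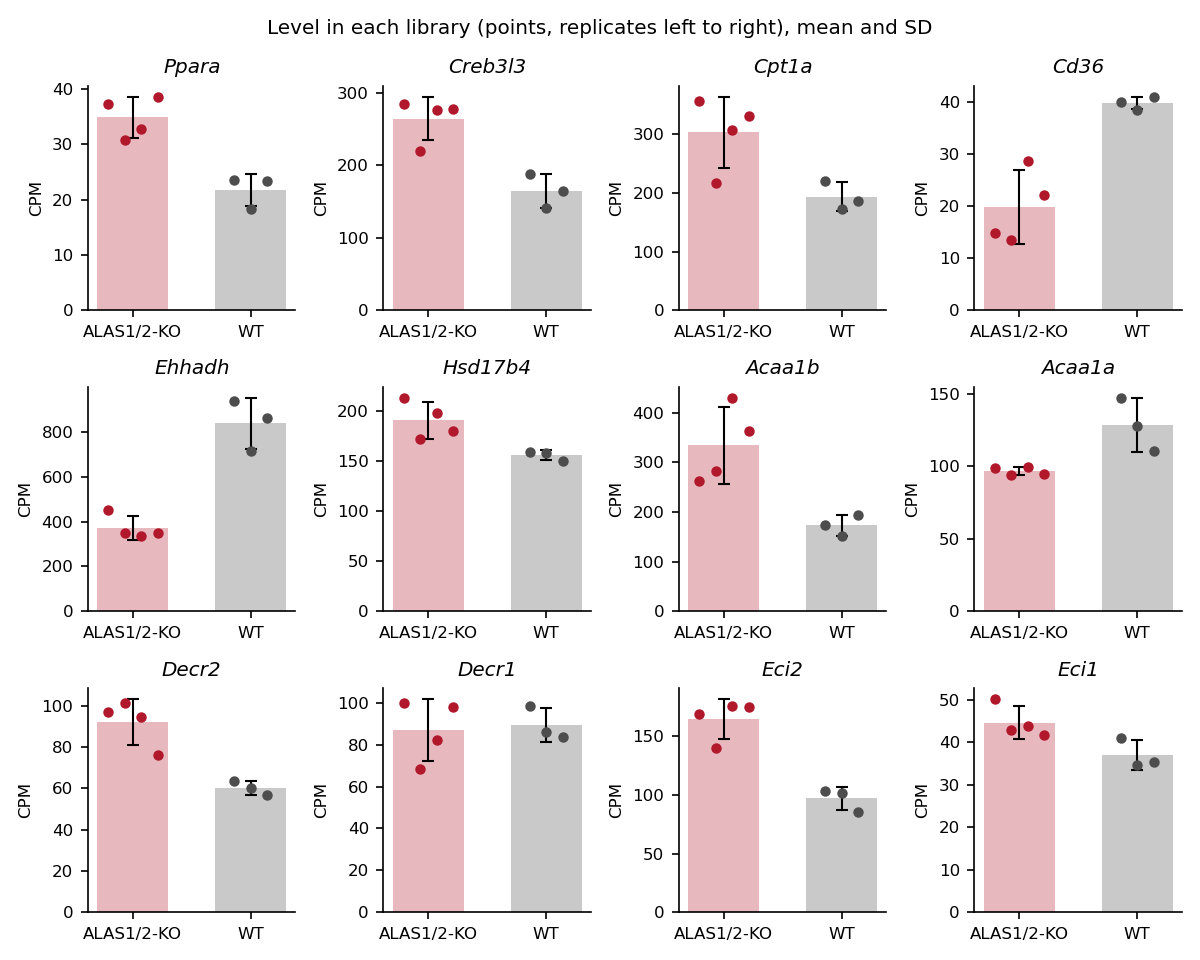
CPM of 12 members in each library (points, replicates in order from left to right), with bars from 0 to the group mean and error bars of 1 SD, ALAS1/2-KO (n = 4) left of WT (n = 3). Ppara, Creb3l3, Acaa1b, Decr2 and Eci2 lie higher in every ALAS1/2-KO library, and Ehhadh, Acaa1a and Cd36 lie lower in every one.

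The 4 genes of fatty acid uptake and activation gave no call (5.1% of all genes tested were called), and they did not share a direction. Fabp1, the cytosolic fatty acid binding protein of hepatocytes, had 3013, 2155, 2499 and 2762 CPM in ALAS1/2-KO libraries, against 2102, 2441 and 2536 CPM in WT libraries. These values overlapped widely (log2 fold change 0.14, SE 0.14, limma adjusted p = 0.592). Per kilobase of exon Fabp1 was the most abundant member in both groups, at 4715 CPM per kilobase in ALAS1/2-KO and 4267 in WT. Slc27a2, a transporter that also activates very long-chain fatty acids, had 1133, 869.8, 1184 and 1309 CPM in ALAS1/2-KO libraries, against 805, 789 and 876 CPM in WT libraries. ALAS1/2-KO replicate 2 fell within the WT range and the other 3 lay above it (log2 fold change 0.43, SE 0.15, limma adjusted p = 0.128, and 0.0486 without that library). Acsl1, the main long-chain acyl-CoA synthetase of liver, averaged 809.8 ± 103 CPM in ALAS1/2-KO and 571 ± 96.7 CPM in WT (SD, n = 4 and 3), a log2 fold change of 0.51 with limma adjusted p = 0.0963.

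Cd36, the membrane fatty acid translocase, stood lower in ALAS1/2-KO libraries without passing the test. It had 14.8, 13.5, 28.8 and 22.2 CPM in ALAS1/2-KO libraries, against 39.98, 38.5 and 40.9 CPM in WT libraries. Every ALAS1/2-KO library lay below the narrow WT range, by a 2.10-fold difference of the group values (log2 fold change -1.07, SE 0.25, limma adjusted p = 0.0515, exact permutation p = 0.0571). The adjusted p was under the threshold in several other fits, among them limma voom on recovered reads (0.0483), quantile normalization (0.0385) and the fit without ALAS1/2-KO replicate 3 (0.0174). Cd36 is also made by endothelial cells and macrophages. The summed level of 8 endothelial markers was 61.3, 141, 271 and 215 CPM in ALAS1/2-KO libraries, against 279, 251 and 310.3 CPM in WT libraries, and that of 8 macrophage markers was 179, 534, 1151 and 1069 CPM in ALAS1/2-KO libraries, against 787, 657 and 949 CPM in WT libraries. All 8 markers of each list had lower group values in ALAS1/2-KO, none was at 0 in all libraries, and none passed the test. Their part in the Cd36 difference was not tested, and in bulk samples fewer cells of a type and less RNA per cell cannot be told apart.

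In the carnitine shuttle all 4 members had positive log2 fold changes and none passed the test (5.1% of all genes tested did). Cpt1a, the outer-membrane carnitine palmitoyltransferase that controls entry of long-chain acyl groups, had 356, 217, 306 and 331 CPM in ALAS1/2-KO libraries, against 220.0, 173 and 187 CPM in WT libraries. ALAS1/2-KO replicate 2 lay within the WT range and the other 3 were above it, which gave a log2 fold change of 0.63 (SE 0.18, limma adjusted p = 0.0854, and 0.0294 without that library). Slc25a20, the carrier that exchanges acylcarnitine for carnitine across the inner membrane, had 95.6, 69.1, 110.7 and 115 CPM in ALAS1/2-KO libraries, against 87.0, 85.8 and 79.9 CPM in WT libraries. ALAS1/2-KO replicate 2 was again the lowest, here below all WT libraries (log2 fold change 0.19, SE 0.17, limma adjusted p = 0.552). Cpt2, which returns the acyl group to coenzyme A inside the mitochondrion, averaged 60.6 ± 8.59 CPM in ALAS1/2-KO and 52.9 ± 5.87 CPM in WT. Crat, a carnitine acetyltransferase of mitochondria and peroxisomes, averaged 46.6 ± 11.2 CPM in ALAS1/2-KO and 25.1 ± 5.66 CPM in WT, with no overlap (log2 fold change 0.88, SE 0.22, limma adjusted p = 0.063, and 0.0391 without ALAS1/2-KO replicate 2).

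Mitochondrial enzymes gave no call, against 5.1% of all genes tested, and most had small positive differences. At that share few calls are expected among 18 genes. Of the 18 mitochondrial enzymes among the members, 14 had positive log2 fold changes, 5 had every ALAS1/2-KO library above every WT library (11.3% of all genes), and 6 were under an unadjusted limma p of 0.05 (23.7% of all genes). Their median log2 fold change was 0.15, between -0.19 for Etfb and 0.63 for Cpt1a. That median was 0.24 without ALAS1/2-KO replicate 4, 0.23 without WT replicate 1 and 0.099 without WT replicate 3. The class median, taken in each library relative to the WT mean, was 0.31, 0.13, 0.22 and 0.13 (log2) in ALAS1/2-KO libraries, against 0.09, 0.02 and -0.10 in WT libraries. The 4 ALAS1/2-KO libraries thus all lay above the 3 WT libraries by this measure, with no test made of it. Acaa2, the mitochondrial thiolase and the most abundant of the β-oxidation enzymes there, had 412, 381, 404 and 374 CPM in ALAS1/2-KO libraries, against 381, 350.2 and 277 CPM in WT libraries. WT replicate 1 lay within the ALAS1/2-KO range (log2 fold change 0.24, SE 0.13, limma adjusted p = 0.299). Acadvl, the very long-chain acyl-CoA dehydrogenase, had 226, 188, 202 and 204 CPM in ALAS1/2-KO libraries, against 197, 186 and 176 CPM in WT libraries, a log2 fold change of 0.14 (SE 0.10, limma adjusted p = 0.452).

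The other acyl-CoA dehydrogenases, Acadm, Acadl and Acads for medium, long and short chains, had log2 fold changes of 0.14, 0.10 and 0.15, and their groups overlapped. Hadha and Hadhb encode both subunits of the trifunctional protein, which carries the later steps for long chains, and are divergent neighbours with 85 bases between them on chromosome 5. Hadha averaged 211 ± 28.1 CPM in ALAS1/2-KO and 162 ± 7.82 CPM in WT (log2 fold change 0.37, limma adjusted p = 0.117), and Hadhb averaged 83.6 ± 9.95 CPM in ALAS1/2-KO and 60.8 ± 3.86 CPM in WT (log2 fold change 0.45, limma adjusted p = 0.0622). Neither passed, although their groups did not overlap. Hadh, the short-chain hydroxyacyl dehydrogenase, Eci1, the enoyl isomerase, and Etfdh, which hands electrons to ubiquinone, were also without overlap, at log2 fold changes of 0.33, 0.27 and 0.42. Etfa and Etfb, the subunits of the electron transfer flavoprotein that feeds Etfdh, stood at -0.07 and -0.19, and Echs1, the short-chain hydratase, and Decr1, the dienoyl reductase, at -0.10 and -0.05. All 4 of these overlapped between the groups, and their log2 fold changes were positive with CPM rescaled to listed reads. Without WT replicate 1, Echs1 was at 0.054 and Decr1 at 0.022, and Decr1 was at 0.061 without ALAS1/2-KO replicate 2.

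Peroxisomal enzymes moved in both directions, and 4 of the 9 passed the test, against 5.1% of all genes. At an unadjusted limma p under 0.05 there were 7 of the 9 (23.7% of all genes). Acaa1b, Decr2 and Eci2 rose and Ehhadh fell, and 5 had every ALAS1/2-KO library above every WT library (11.3% of all genes) while Ehhadh and Acaa1a had every one below (11.4% of all genes). The median log2 fold change of the 9 was 0.29, and the class median in each library relative to the WT mean was 0.45, 0.14, 0.35 and 0.33 in ALAS1/2-KO libraries, against 0.08, 0.00 and -0.08 in WT libraries. Eci2 is counted as peroxisomal here although it is also found in mitochondria. Without Eci2 and Acot4 the median log2 fold change was also 0.29. The difference between the peroxisomal and the mitochondrial class was not tested, since the members were chosen with results known. In the wider lists described below, the order of the classes depended on the measure. There 3 of 28 peroxisomal lipid genes passed (median log2 fold change 0.08), against 6 of 25 mitochondrial fatty acid and ketone genes (median 0.13). At an unadjusted limma p under 0.05 there were 14 of the 28 and 9 of the 25 (23.7% of all genes). Groups did not overlap for 11 of the 28 and 8 of the 25 (22.7% of all genes).

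Ehhadh encodes the bifunctional enzyme with the hydratase and dehydrogenase steps of peroxisomal oxidation, and in mouse liver it is a known target of PPARα (chromosome 16, 21761287 to 21787807). It had 453, 349.6, 335 and 348 CPM in ALAS1/2-KO libraries, against 937, 713 and 863 CPM in WT libraries. All 4 ALAS1/2-KO libraries lay far below the lowest WT library. Ehhadh fell 2.26-fold (log2 fold change -1.17, SE 0.15, limma adjusted p = 0.00584, exact permutation p = 0.0286), and it passed whichever of the 7 libraries was left out, at log2 fold changes from -1.29 to -1.09, and in each of 11 other fits. Per kilobase of exon, Ehhadh was the fifth most abundant member in ALAS1/2-KO, at 125 CPM per kilobase, and the second in WT, at 281.

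Hsd17b4, the other multifunctional enzyme of the peroxisome, which handles branched chains and bile acid precursors, had 214, 172, 199 and 180.1 CPM in ALAS1/2-KO libraries, against 159, 159 and 150.4 CPM in WT libraries. Its groups did not overlap and its direction was opposite to that of Ehhadh, without passing the test (log2 fold change 0.29, SE 0.11, limma adjusted p = 0.153). Acox2, the oxidase for branched chains, averaged 115 ± 17.7 CPM in ALAS1/2-KO and 86.4 ± 10.7 CPM in WT, with 1 WT library inside the ALAS1/2-KO range (log2 fold change 0.41, SE 0.15, limma adjusted p = 0.139).

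Acaa1b and Acaa1a encode the 3-ketoacyl-CoA thiolases of mouse peroxisomes and lie 183 kilobases apart on chromosome 9. Acaa1b (119148023 to 119157093) had 262, 283, 430.5 and 363 CPM in ALAS1/2-KO libraries, against 173, 152 and 195 CPM in WT libraries. Replicates 3 and 4 were the highest, and all 4 ALAS1/2-KO libraries lay above WT. Acaa1b rose 1.90-fold (log2 fold change 0.93, SE 0.18, limma adjusted p = 0.0306). Acaa1a (119339676 to 119350299) had 98.7, 94.4, 99.7 and 94.96 CPM in ALAS1/2-KO libraries, against 147, 128 and 110.3 CPM in WT libraries. The ALAS1/2-KO values were close together and below every WT value, and the difference did not pass (log2 fold change -0.40, SE 0.11, limma adjusted p = 0.0879); it did with scaling that left out the most abundant and the mitochondrial genes (0.0377) and with quantile normalization (0.0447), where Acaa1b did not (0.0614).

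The coding sequences of both thiolases, computed from the mm10 annotation, were identical at 1231 of 1275 positions (96.5%), with an identical stretch of 327 bases. Reads from such stretches fit both genes, and the sources used here do not say how they were counted, so each value alone is uncertain. The sum of both was 361, 378, 530.1 and 458 CPM in ALAS1/2-KO libraries, against 321, 279 and 305 CPM in WT libraries, with no overlap (exact permutation p = 0.0571). Acaa1b took 77.0% ± 3.90 of the reads of both in ALAS1/2-KO and 57.4% ± 5.60 in WT (SD, n = 4 and 3; exact permutation p = 0.0286). The Acaa1b call did not hold without ALAS1/2-KO replicate 4 (limma adjusted p = 0.0754) or without WT replicate 1 (0.0934), 2 (0.152) or 3 (0.0563).

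Decr2 and Eci2 are the auxiliary enzymes with which peroxisomes handle double bonds. Decr2, the peroxisomal dienoyl reductase (chromosome 17, 26081208 to 26090337), had 97.0, 101, 94.6 and 75.9 CPM in ALAS1/2-KO libraries, against 63.7, 60.2 and 57.0 CPM in WT libraries. ALAS1/2-KO replicate 4 was the lowest of its group and still above WT, and Decr2 rose 1.52-fold (log2 fold change 0.60, SE 0.12, limma adjusted p = 0.0303). Eci2, an enoyl isomerase found in peroxisomes and also in mitochondria (chromosome 13, 34977748 to 35027096), had 168, 139.5, 176 and 175 CPM in ALAS1/2-KO libraries, against 104, 102 and 85.4 CPM in WT libraries. Its groups were well apart, and it rose 1.70-fold (log2 fold change 0.76, SE 0.12, limma adjusted p = 0.0167). Decr2 did not pass without ALAS1/2-KO replicate 2 (0.0599) or 3 (0.0651), or without WT replicate 1 (0.0745), 2 (0.134) or 3 (0.0766), and Eci2 did not without WT replicate 2 (0.0753). Pex11a, a membrane protein of peroxisome division and a PPARα target, had 81.9, 42.2, 85.5 and 96.1 CPM in ALAS1/2-KO libraries, against 56.1, 48.5 and 41.8 CPM in WT libraries. ALAS1/2-KO replicate 2 alone lay in the WT range (log2 fold change 0.59, SE 0.28, limma adjusted p = 0.244, and 0.0268 without that library).

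A ratio of reads between genes of the same library does not depend on library scaling. Enzymes of the same or a like step were therefore set against each other in 7 ratios, which were chosen after the values were seen. Ehhadh over Hsd17b4, the alternative multifunctional enzymes, was 1.94 ± 0.19 in ALAS1/2-KO and 5.37 ± 0.76 in WT, 2.76-fold lower. Ehhadh over Hadha, the matching peroxisomal and mitochondrial step, was 1.76 ± 0.07 in ALAS1/2-KO and 5.14 ± 0.48 in WT, 2.92-fold lower. Both ratios were far below WT in all 4 ALAS1/2-KO libraries. Acaa1b over Acaa1a was 3.45 ± 0.76 in ALAS1/2-KO and 1.38 ± 0.34 in WT, 2.50-fold higher, whereas Acaa1a over the mitochondrial thiolase Acaa2 was 0.247 ± 0.006 in ALAS1/2-KO and 0.383 ± 0.017 in WT, 1.55-fold lower. The isomerase Eci2, of peroxisomes and also of mitochondria, over the mitochondrial Eci1 was 3.70 ± 0.47 in ALAS1/2-KO and 2.62 ± 0.27 in WT, 1.41-fold higher. For these 5 ratios the groups did not overlap (exact permutation p = 0.0286 each, the smallest that 35 regroupings allow, and 0.04 adjusted over the 7). The ratios share genes and were chosen after the values were seen. The p-values in this paragraph therefore only rank the difference of mean log2 ratios among the 35 regroupings. They add no support to the single-gene results. Decr2 over Decr1 was 1.09 ± 0.30 in ALAS1/2-KO and 0.676 ± 0.027 in WT, also without overlap (exact permutation p = 0.0571, adjusted 0.0667). Acaa1b over Acaa2 was 0.854 ± 0.199 in ALAS1/2-KO and 0.531 ± 0.151 in WT, with overlap (exact permutation p = 0.114).

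**Figure D3:**
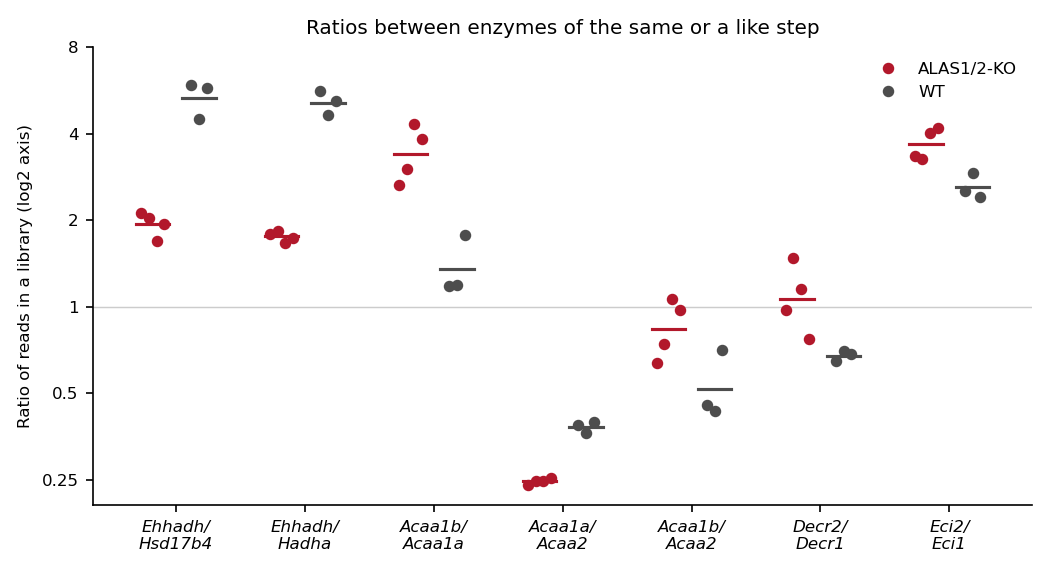
Ratio of reads between enzyme genes in each library (points) on a log2 axis, with the mean of the log2 ratios as a bar, ALAS1/2-KO (n = 4) left of WT (n = 3) in each pair. Both Ehhadh ratios lie near 2 in ALAS1/2-KO and near 5 in WT, and Acaa1b over Acaa2 is the ratio in which the groups overlap.

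The 4 thioesterases, which release free fatty acids from coenzyme A, gave no call (5.1% of all genes tested were called). Except for Acot8, the ALAS1/2-KO libraries differed widely among themselves. Acot1, the cytosolic enzyme, had 12.7, 4.83, 22.7 and 32.3 CPM in ALAS1/2-KO libraries, against 16.8, 15.4 and 15.6 CPM in WT libraries. ALAS1/2-KO replicates 1 and 2 lay below WT and replicates 3 and 4 above it, so that the log2 fold change was -0.13 (SE 0.59, limma adjusted p = 0.917) and 0.40 without ALAS1/2-KO replicate 2. Acot4, a peroxisomal enzyme for dicarboxylic acyl groups, had 63.1, 39.8, 63.9 and 75.9 CPM in ALAS1/2-KO libraries, against 54.4, 50.8 and 53.7 CPM in WT libraries. The same library was the only one below WT (log2 fold change 0.16, SE 0.20, limma adjusted p = 0.668). Acot2, the mitochondrial enzyme, averaged 4.26 ± 1.83 CPM in ALAS1/2-KO and 3.70 ± 0.41 CPM in WT (log2 fold change 0.10, and -0.14 without ALAS1/2-KO replicate 4). Acot8, a peroxisomal enzyme of broad range, averaged 8.93 ± 0.78 CPM in ALAS1/2-KO and 7.54 ± 0.57 CPM in WT. Its groups did not overlap, without passing the test (log2 fold change 0.24, limma adjusted p = 0.271). Acot1 and Acot2 were identical at 85.5% of aligned coding positions, with an identical stretch of 273 bases, so reads may have been split between them.

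Bdh1, which turns acetoacetate into 3-hydroxybutyrate in mitochondria, had 145, 126, 139 and 101 CPM in ALAS1/2-KO libraries, against 110.5, 132 and 102 CPM in WT libraries. The groups overlapped (log2 fold change 0.15, SE 0.15, limma adjusted p = 0.589). Among other known PPARα targets, Angptl4, a secreted inhibitor of lipoprotein lipase, had 248, 159, 259 and 283 CPM in ALAS1/2-KO libraries, against 207, 152 and 128 CPM in WT libraries. Apart from ALAS1/2-KO replicate 2 these libraries lay above WT (log2 fold change 0.54, SE 0.23, limma adjusted p = 0.205). Vnn1, a pantetheinase that yields a precursor of coenzyme A, had 67.2, 26.7, 47.8 and 63.6 CPM in ALAS1/2-KO libraries, against 50.5, 50.7 and 55.0 CPM in WT libraries. Its log2 fold change was -0.10 (SE 0.30, limma adjusted p = 0.865), and 0.18 without ALAS1/2-KO replicate 2. Fgf21, a fasting hormone of the liver, ranged from 0.46 to 5.56 CPM in ALAS1/2-KO and from 0.99 to 5.77 CPM in WT, and Pdk4, a kinase that shuts off pyruvate dehydrogenase, from 2.74 to 7.59 CPM in ALAS1/2-KO and from 5.00 to 19.0 CPM in WT. The highest WT value of both came from WT replicate 3. The log2 fold change of Fgf21 was -0.18, but 0.48 without ALAS1/2-KO replicate 2 and 0.47 without WT replicate 3.

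The members of this pathway also separated the ALAS1/2-KO libraries from each other. ALAS1/2-KO replicate 2 was the lowest of its group for 26 of 42 members (61.9%) and for 21.8% of all genes tested, a count made after the values were seen. Replicate 2 was also the lowest for 15 of 17 further PPARα targets that were tested. Among the 18 mitochondrial enzymes it was the lowest for 8, as was replicate 4. Cyp4a14, a fatty acid ω-hydroxylase that responds strongly to PPARα in mouse liver, had 97.6, 13.3, 232 and 284 CPM in ALAS1/2-KO libraries, against 118, 144 and 301 CPM in WT libraries. Cyp4a10, of the same family, had 428, 106, 351 and 553 CPM in ALAS1/2-KO libraries, against 272, 274 and 415 CPM in WT libraries. In both genes replicate 2 lay below every other library of either group. Among members, the mean of the other 3 ALAS1/2-KO libraries was 7.79-fold that of replicate 2 for Fgf21, which had only 0.46 CPM there. It was 4.67-fold for Acot1, 2.23-fold for Vnn1 and 2.08-fold for Pex11a, but 1.17-fold for Ppara and 1.08-fold for Ehhadh. For some members replicate 2 was above that mean, among them Echs1 (0.81-fold) and Hadh (0.88-fold). With 29924789 listed reads and 25.3% of them mitochondrially encoded, this library lay within the range of the other ALAS1/2-KO libraries. Its part in the group differences is shown by the values without it given above, and the cause was not tested.

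**Figure D4:**
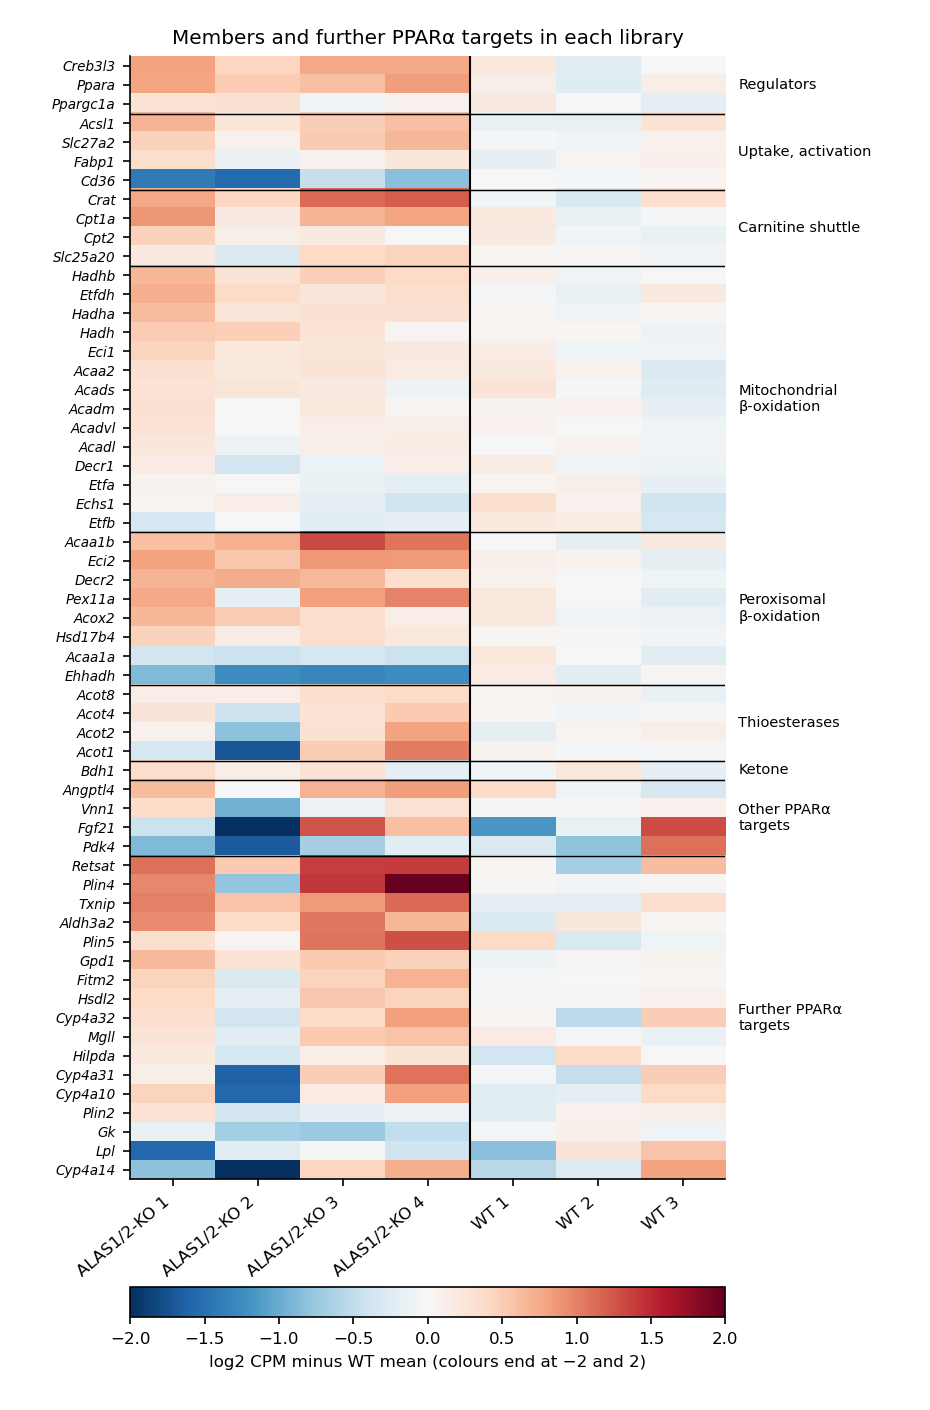
Log2 CPM minus the WT mean for the 42 members and 17 further PPARα targets (rows, by role) in each library (columns, ALAS1/2-KO left of WT); red is above the WT mean and blue below, and colours end at -2 and 2. ALAS1/2-KO replicate 2 is blue for Acot1, Fgf21, Pdk4, Cyp4a10 and Cyp4a14, while Ehhadh is blue and Acaa1b red in all 4 ALAS1/2-KO libraries.

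Wider lists, also chosen with earlier results of these data known, place the members in their pathways. Of 20 further PPARα targets listed, 17 were tested, 1 rose and 0 fell (against 2.91% and 2.19% of all genes), 5 were under an unadjusted limma p of 0.05 (23.7% of all genes), and the median log2 fold change was 0.29. The 1 was Txnip, a thioredoxin-binding protein that also responds to glucose, with 413, 308, 372 and 454 CPM in ALAS1/2-KO libraries, against 184, 182 and 263 CPM in WT libraries. All 4 ALAS1/2-KO libraries lay above WT (log2 fold change 0.89, SE 0.18, limma adjusted p = 0.0313).

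Of 27 further genes of mitochondrial fatty acid metabolism and of ketone metabolism, a list that also holds cytosolic enzymes such as Bdh2, 25 were tested, 4 rose and 2 fell (against 2.91% and 2.19% of all genes), and the median log2 fold change was 0.13. At an unadjusted limma p under 0.05 there were 9 (23.7% of all genes). Those that passed the adjusted p are not steps of the β-oxidation spiral for long chains. Acsm2 and Acsm3, medium-chain acyl-CoA synthetases, went opposite ways. Acsm2 fell to 2.11 ± 0.33 CPM in ALAS1/2-KO, against 6.62 ± 0.36 CPM in WT (limma adjusted p = 0.00385), and Acsm3 rose to 54.1 ± 4.00 CPM in ALAS1/2-KO, against 31.9 ± 2.48 CPM in WT (limma adjusted p = 0.00703). Bdh2, a cytosolic hydroxybutyrate dehydrogenase, fell to 1.85 ± 0.52 CPM in ALAS1/2-KO, against 6.97 ± 1.25 CPM in WT (limma adjusted p = 0.00746). Acsf2, an acyl-CoA synthetase of mitochondria, rose to 155 ± 21.6 CPM in ALAS1/2-KO, against 89.6 ± 10.8 CPM in WT (limma adjusted p = 0.022). The other two, named after their values were seen, were Hsd17b10, a mitochondrial dehydrogenase of short and branched acyl groups (log2 fold change 1.07, limma adjusted p = 0.0263), and Acacb, which makes the malonyl-CoA that inhibits CPT1 (log2 fold change 1.57, limma adjusted p = 0.0339).

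Of 29 further genes of peroxisomal lipid metabolism, 28 were tested, 2 rose and 1 fell (against 2.91% and 2.19% of all genes), 14 were under an unadjusted limma p of 0.05 (23.7% of all genes), and the median log2 fold change was 0.08. Abcd3, a membrane transporter that brings acyl groups into peroxisomes, had 336, 278, 316 and 311 CPM in ALAS1/2-KO libraries, against 222, 202 and 234 CPM in WT libraries. It rose 1.42-fold (limma adjusted p = 0.0367). Slc25a17, the peroxisomal carrier of coenzyme A and other nucleotides, had 44.5, 39.1, 34.0 and 37.4 CPM in ALAS1/2-KO libraries, against 53.2, 56.6 and 56.9 CPM in WT libraries. It fell 1.44-fold (limma adjusted p = 0.0342), so that carriers of the same membrane passed the test in opposite directions.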

How the data were processed

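The authors deposited 1 table of log2 CPM values, which include a small prior, for 12151 genes in 7 libraries. Per the labels' protocols, libraries were made from total RNA with a TruSeq kit; per the submitters' processing notes, cutadapt, HISAT2 and the build mm10 were used, and the sources used here do not name the read counter. Values were taken off the log2 scale and a floor of 0.0676 CPM was subtracted; 100% were then whole multiples of 1 read within 0.01 reads. Genes reaching 1 CPM in 3 or more libraries (12105) entered a limma 3.58.1 fit (R 4.3.3) on the deposited log2 values, with intensity trend and robust moderation, two-sided, with Benjamini-Hochberg adjustment over all of them; an adjusted p under 0.05 is called higher or lower. The prior understates changes of low genes. Single values were compared by exact permutation over 35 regroupings. Class medians in a library are medians over genes of log2 CPM minus the gene's WT mean.

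Members and lists were chosen with earlier results of these data known. Library values are given for called members, the regulators, Cpt1a and the 2 most abundant members of each role, and for other members named after their values were seen (among them Cd36, Acaa1a, Hsd17b4 and Pex11a). From each wider list, up to 4 called members with the smallest p are named; 1 that rose in the peroxisomal list is counted but not reported here by name. Alternatives were a pseudocount of 1 CPM, filters, 3 library scalings, limma without trend, array weights, voom on recovered reads, the replicate number as a block, and each library left out in turn; leaving out ALAS1/2-KO replicates 1 and 2 together, which hold the lowest endothelial and stellate marker sums, was chosen after seeing the data. The procedure was tested on simulated data.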

Additional observations from a re-analysis of the deposited data

Results flagged for a closer look

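In 2 of the 42 members, 1 ALAS1/2-KO library stood far from the other 3 by Dixon's test, which flags about 1 in 20 groups by chance. For Creb3l3, ALAS1/2-KO replicate 2 had 219.6 CPM and the other 3 had 276 to 285 CPM. It still lay above the highest WT library, at 188 CPM. For Ehhadh, ALAS1/2-KO replicate 1 had 453 CPM and the other 3 had 335 to 349.6 CPM. It still lay below the lowest WT library, at 713 CPM. WT, with 3 libraries, was not examined in this way.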

How the results depend on the processing

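The number of genes called, 617, was 2735 with CPM rescaled to listed reads, 355 without limma's trend, 2001 with array weights, 72 with the replicate block and 1130 without ALAS1/2-KO replicates 1 and 2 together, and 100 to 802 when each library was left out. The number of members called, 6, was 26, 2, 16, 1 and 14 under the same 5 alternatives in that order, and 1 to 9 when each library was left out. Each left-out library also lowers the number of samples, and the rescaling shifts all genes of a library alike. In the replicate block, ALAS1/2-KO replicate 4 has no WT library of its number. That fit therefore gave the same log2 fold changes as the fit without this library (Ppara 0.63 in both) and is no separate check of them. Otherwise the cause of these changes was not tested. Same-numbered libraries did not deviate together (correlations of -0.03, 0.05 and 0.18), so the numbers are not taken as pairs; Ehhadh was the 1 member called with the block.

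With CPM rescaled to listed reads the median over all genes was by construction 0.32, against -0.02 as deposited, the class medians were 0.48 for mitochondrial and 0.62 for peroxisomal enzymes, and those of the wider lists were 0.47 (mitochondrial fatty acid and ketone), 0.41 (peroxisomal lipid), 0.47 (biogenesis), 0.62 (PPARα targets) and 0.46 (receptors and coregulators). The mitochondrial median, 0.15, was 0.24 without ALAS1/2-KO replicate 4, a move of more than 1 SD between libraries. The replicate block gave the same value because it rests on the same estimates. When each library was left out, this median was 0.10 to 0.24. The peroxisomal median was 0.22 to 0.35 under the alternatives other than the rescaling. Over the alternatives for all 42 members, 655 single log2 fold changes kept their direction and side of the threshold, 48 newly passed it, 27 no longer did and 23 changed sign, none of them in a member called as deposited. The filters and the fit without limma's trend use the same log2 values, so they could not change a sign. With the repeated estimates of the replicate block, these counts overstate how stable the directions are. With the rescaling, the sign changed for Acot1 (0.21, against -0.13 as deposited), Decr1 (0.28, against -0.05), Echs1 (0.23, against -0.10), Etfa (0.26, against -0.07), Etfb (0.14, against -0.19), Fgf21 (0.14, against -0.18) and Vnn1 (0.23, against -0.10). With array weights Acot1 was at 0.30 and Fgf21 at 0.59, with quantile normalization Fgf21 was at 0.037, and with the replicate block Acot2 was at -0.14, against 0.10. Without ALAS1/2-KO replicates 1 and 2 together, Acot1 was at 0.76, Decr1 at 0.0093, Fgf21 at 0.93 and Vnn1 at 0.084. When each library was left out, Acot1 ranged from -0.51 to 0.40, Acot2 from -0.14 to 0.40, Decr1 from -0.12 to 0.061, Echs1 from -0.30 to 0.054, Fgf21 from -0.76 to 0.48 and Vnn1 from -0.26 to 0.18. Members near 1 CPM, such as Fgf21 in ALAS1/2-KO replicate 2, rest on few reads, and with 4 and 3 libraries small differences such as those of most mitochondrial enzymes may not be detectable.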

Other observations

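The nuclear receptor partners and coregulators of PPARα were a separate list of 20 genes, of which 3 rose and 0 fell (against 2.91% and 2.19% of all genes), with a median log2 fold change of 0.13. Ppargc1b, a coactivator related to Ppargc1a, rose 2.47-fold to 7.98 ± 1.36 CPM in ALAS1/2-KO, against 3.23 ± 0.85 CPM in WT (SD, n = 4 and 3, limma adjusted p = 0.0197). Med1, the Mediator subunit that contacts nuclear receptors, rose 1.49-fold to 22.4 ± 2.71 CPM in ALAS1/2-KO, against 14.9 ± 0.36 CPM in WT (limma adjusted p = 0.0303). Esrra, an orphan receptor that acts with these coactivators on mitochondrial genes, rose 1.49-fold to 22.4 ± 2.20 CPM in ALAS1/2-KO, against 15.1 ± 1.69 CPM in WT (limma adjusted p = 0.0342). Rxra, the main DNA-binding partner of PPARα in liver, stood at 211 ± 13.8 CPM in ALAS1/2-KO and 206 ± 23.6 CPM in WT (limma adjusted p = 0.861).

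None of the 15 peroxins tested, which build and divide peroxisomes, passed limma's adjusted p, 4 were under an unadjusted p of 0.05 (23.7% of all genes), and their median log2 fold change was 0.13. The most abundant by mean CPM over all 7 libraries were Pex19, the chaperone of peroxisomal membrane proteins, at 57.8 ± 7.21 CPM in ALAS1/2-KO and 54.0 ± 3.65 CPM in WT, and Pex14, a docking protein for import, at 52.6 ± 2.91 CPM in ALAS1/2-KO and 47.5 ± 1.93 CPM in WT.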
